A study of Arabidopsis thaliana with 26 samples.

Results

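Levels of 6 Arabidopsis thaliana genes that make or mature ribosomal RNA, or that belong to the nuclear RNA polymerases, were followed across 13 groups of aerial tissue samples. The genes were NRPA1 (AT3G57660), NRPA2 (AT1G29940), NRPB12 (AT5G41010), YAO (AT4G05410), IMP4 (AT1G63780) and RH39 (AT4G09730). Probe sets were taken where the platform annotation names 1 of these genes and no other, which gave exactly 1 probe set per gene and so 6 of the 22810 probe sets on the array. The annotation names 1 gene for 13513 probe sets in all, and all 6 lay above the limit for dim probe sets in every test.

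Ribosome production starts in the nucleolus, where RNA polymerase I transcribes the large ribosomal RNA precursor. Assembly factors then fold, cut and modify this precursor while ribosomal proteins are added, and chloroplasts and mitochondria assemble ribosomes of their own with separate sets of factors. In plants the process runs fastest in growing and dividing tissue, and mutations that weaken it commonly narrow the leaves, slow growth or stop embryos and gametophytes. NRPA1 and NRPA2 are the largest and next-largest subunits of RNA polymerase I, which together form its active site. NRPB12 is a small subunit shared by all nuclear RNA polymerases of plants. YAO is a nucleolar WD40-repeat protein needed for gametophyte and embryo development, and it is related to the yeast U3 ribonucleoprotein component Rrp9. IMP4 belongs, by its yeast counterpart, to the U3-containing complex that makes the early cuts in the precursor of the small subunit RNA. RH39 stands apart by location: it is a DEAD-box RNA helicase of the chloroplast that acts in maturation of the chloroplast large-subunit ribosomal RNA.

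Expression was read from 26 ATH1 arrays (Affymetrix), a 1-colour oligonucleotide format, with 2 arrays in each group and 18 plants pooled per sample. In 10 groups, plants of the Columbia-0 background were raised on 0.8% agar with 0.5x MS medium at 21 °C, 100% humidity and continuous light, and were sampled at growth stage 1.14. Cold groups spent 24 h at 4 °C under 100 microEinsteins of light, and existed for the mutant lines sf6, sf3 and sf2 and for wild type (wt). The mutant lines are labelled sf6, sf3 and sf2, and the study's title names the mutations sfr6, sfr3 and sfr2, known as sensitive to freezing. Their alleles were induced with EMS, a chemical mutagen, per the labels. Drought groups existed for sf6 and wt: aerial tissue was cut off and dried for 2 h in moving air at 20 to 22 °C. Drought groups are compared here with intact, untreated control plants of the same line, so cutting and drying cannot be told apart. Control groups existed for all 4 lines. Compost was the substrate of the last 3 groups (24f, 03f and 00f), whose plants were kept at 4 °C, 70% humidity and 9 h light with 15 h dark. These plants were also sampled at growth stage 1.14. Their labels give neither a genotype nor the meaning of the code, so these groups were tested against each other only.

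Replicate arrays correlated at 0.983 to 0.992 over all probe sets on the log2 scale. The labels do not say that the 2 arrays of a group came from separate sowings, so the p-values reflect only the spread between samples, possibly a technical one, and precision is limited by the small number of arrays. The tissue label was checked against markers, of which 3 of 20 aerial and 3 of 11 root names sought were measured. The photosynthesis genes RCA, LHCB4.1 and LHCB4.2 lay at 1925 to 3334, 2170 to 3630 and 507 to 2987 on the arrays, LHCB4.2 being at 507 to 935 in cold arrays against 2225 to 2943 in agar control arrays, whereas the root hair genes EXPA7 and EXPA18 did not exceed 36.6 and 34.8. PYK10, a root and hypocotyl beta-glucosidase, was at 803 to 1089 in cold, 886 to 1225 in drought and 1286 to 1659 in agar control arrays, and at 16.9 to 129.4 in compost arrays. The cold marker COR15A was at 2621 to 3561 in cold arrays against 42.3 to 204.4 in agar control arrays. Among the controls it averaged 175.8 in sf3, against 53.2 in sf6, 55.25 in sf2 and 51.65 in wt. COR15A was at 60.1 to 82.0 in drought arrays and at 1296 to 2802 in compost arrays.

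The first question was whether the 6 genes responded to cold. After 24 h at 4 °C, transcripts of the RNA polymerase subunits and of the nucleolar assembly factors rose between 2.04-fold and 2.87-fold on average over the 4 lines, that is, NRPA1, NRPA2, NRPB12, YAO and IMP4, the 5 genes whose products act in the nucleus. RH39, whose product acts in the chloroplast, rose by 1.27-fold on the same average. All 6 genes, RH39 included, lie on nuclear chromosomes. The 8 cold arrays lay above all 8 control arrays for NRPA1, NRPA2, NRPB12, YAO and IMP4, against 16% of all tested probe sets with such a higher, non-overlapping pattern, but the ranges overlapped for RH39. Fold changes throughout are on the scale of log2(intensity + 16), which understates the change of dim genes.

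NRPA1 intensities in cold were 192.1 and 147.0 in sf6, 172.7 and 170.4 in sf3, 137.9 and 162.2 in sf2, and 146.3 and 184.8 in wt. In the controls NRPA1 was at 48.0 and 48.0 in sf6, 55.7 and 56.8 in sf3, 47.6 and 51.7 in sf2, and 51.3 and 52.0 in wt. The lowest cold array was thus above 2 times the highest control array for this catalytic subunit. In sf6 the log2 change was 1.53, in sf3 1.38, in sf2 1.34 and in wt 1.42, with a standard error (SE) of 0.12 in each line (n = 2 arrays per group). The mean over the 4 lines was 1.41 (SE 0.06, adjusted p = 1.95e-12, limma with Benjamini-Hochberg adjustment over 17059 probe sets).

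NRPA2 ran from 267.8 to 337.2 with a median of 285.4 in the 8 cold arrays, against 122.4 to 151.8 with a median of 133.4 in the 8 control arrays. Its mean change of 1.03 (SE 0.05, adjusted p = 2.24e-11 in limma) was the smallest among the 5 genes with nuclear products. Its 4 line values, 1.05 in sf6, 1.01 in sf3 and 1.02 in sf2 and in wt, lay closest together. NRPB12 ran from 322.7 to 450.3 with a median of 396.9 in cold arrays, against 144.9 to 169.9 with a median of 158.7 in control arrays. This shared subunit rose by 1.25 on the log2 scale (SE 0.06, adjusted p = 1.38e-11). The widest gap between replicates was in sf3 cold, where NRPB12 read 322.7 and 450.3, and even the lower of these stood clear of every control array.

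YAO rose most. Its intensities in cold were 316.6 and 273.6 in sf6, 289.2 and 281.2 in sf3, 259.6 and 261.8 in sf2, and 228.7 and 278.1 in wt. In the controls YAO was at 80.7 and 89.3 in sf6, 88.3 and 77.5 in sf3, 91.3 and 78.8 in sf2, and 92.4 and 79.1 in wt. Control arrays of all lines occupied the same narrow range, and the lowest cold array, in wt, was far outside it. The mean log2 change of YAO was 1.52 (SE 0.06, 2.87-fold, adjusted p = 2.62e-13). IMP4, another factor of early precursor processing, ran from 366.8 to 454.5 with a median of 383.1 in cold arrays, against 146.6 to 187.8 with a median of 160.5 in control arrays. IMP4 rose by 1.19 on the log2 scale (SE 0.06, 2.28-fold, adjusted p = 6.29e-12).

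**Figure D1:**
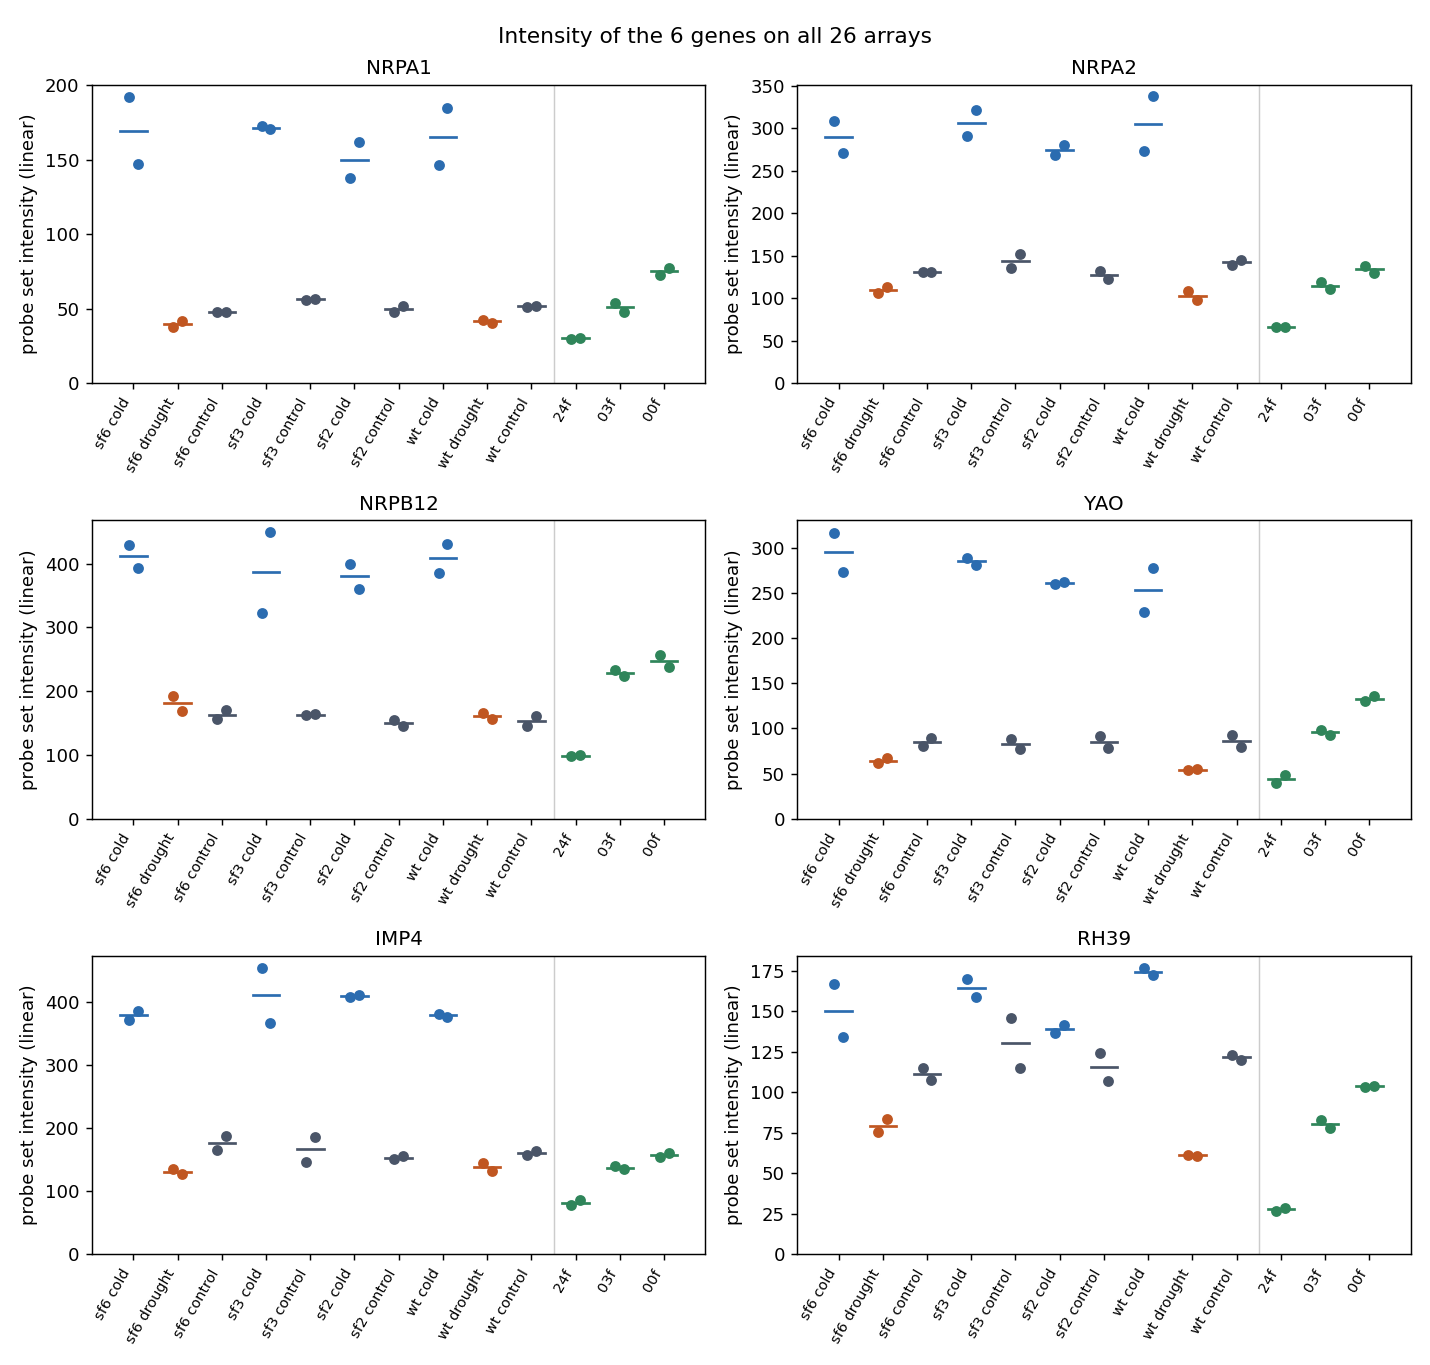
Probe set intensity (linear scale, from 0) of the 6 genes in 13 groups. Points are the 2 arrays of a group and short lines their mean; cold is blue, drought orange, control grey and the compost groups, right of the vertical line, green. The cold arrays stand above the control arrays of every line for the 5 genes with nuclear products. For RH39 the cold arrays (134.3 to 176.8) overlap the control arrays (106.8 to 146.0), and the drought arrays (60.6 to 83.5) lie below both. The 24f group is the lowest in every panel.

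RH39 responded less. Its intensities in cold were 166.7 and 134.3 in sf6, 169.8 and 158.8 in sf3, 136.4 and 141.8 in sf2, and 176.8 and 172.5 in wt. In the controls RH39 was at 114.8 and 107.8 in sf6, 146.0 and 115.3 in sf3, 124.5 and 106.8 in sf2, and 123.0 and 120.2 in wt. Within each line both cold arrays lay above both control arrays, but an sf3 control array was above the sf2 cold arrays and the lower sf6 cold array. The share of all probe sets with such a pattern in single lines in cold is not given here. With 2 arrays a group such patterns are common: in wt drought 31.9% of all tested probe sets had a lower, non-overlapping one. RH39 rose by 0.47 in wt (SE 0.12, adjusted p = 0.00303), by 0.38 in sf6 (adjusted p = 0.0130) and by 0.31 in sf3 (adjusted p = 0.0421). The log2 difference in sf2 was 0.24 with an adjusted p of 0.110. The call in sf3 was lost without sf3 control replicate 2 (adjusted p = 0.382), sf3 cold replicate 1 (0.173) or sf3 cold replicate 2 (0.0751), and when only the compared groups were fitted (0.160). The call in sf6 was lost without sf6 control replicate 2 (adjusted p = 0.0834), sf6 cold replicate 1 (0.162), and when only the compared groups were fitted (0.0530).

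Counting members, 6 of 6 rose in sf6, sf3 and wt and 5 of 6 in sf2, while the share of all tested probe sets that rose was 19.5% in sf6, 20% in sf3, 19.8% in sf2 and 20.7% in wt. In the mean of the 4 lines all 6 rose, against 29.7% of all probe sets tested. The 6 genes, and the lists used below, were chosen with earlier results of these data known. Counts, ranks and p-values set beside all probe sets, here and below, are therefore descriptive and not independent support. The median change of the 6 genes was 1.22 on the log2 scale, and that of all probe sets tested was -0.04. Ranked among all tested probe sets, the mean cold change of YAO stood at the 98.0th percentile, that of NRPA1 at 97.6, NRPB12 at 96.8, IMP4 at 96.4, NRPA2 at 95.2 and RH39 at 81.2. Scaling arrays by their medians moved the median change of all probe sets in wt to 0.05 from -0.05 and the higher and lower calls to 4521 and 3407, against 3539 and 4493. The same scaling gave 4123 higher and 3392 lower calls in sf6, against 3334 and 4410, and 4244 and 3272 in sf3, against 3412 and 4122. All cold calls of the 5 genes with nuclear products held in every alternative tried. In bulk aerial tissue, a change in the number of cells of a type and a change in RNA per cell cannot be told apart. Of 35 cell division gene names sought, 1 was measured, PRL (MCM7, part of the replicative helicase). PRL was at 107.9 to 139.2 in cold arrays against 89.1 to 125.7 in control arrays. The mean log2 difference of PRL was 0.11 (adjusted p = 0.120). PYK10 fell by 0.69 on the log2 scale over the same arrays (adjusted p = 1.75e-08). All 3 leaf photosynthesis markers fell too, RCA by 0.28 (adjusted p = 0.00369), LHCB4.1 by 0.32 (adjusted p = 1.57e-04) and LHCB4.2 by 1.81 (adjusted p = 6.6e-11). The part of cell type in the changes of the 6 genes was not tested.

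The smaller change of RH39 is described further by the difference within each array between log2 RH39 and the mean log2 value of the other 5 genes. RH39 was chosen for this after the values of all 6 genes had been seen, so no test is attached. The difference ran from -0.97 to -0.56 in the 8 cold arrays, against -0.07 to 0.35 in the 8 control arrays, so the arrays did not overlap. The change of RH39 in cold minus the mean change of the other 5 genes was -0.92 in sf6, -0.97 in sf3, -1.04 in sf2 and -0.80 in wt. Over 20 alternatives the mean shift stayed between -1.02 and -0.75.

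**Figure D2:**
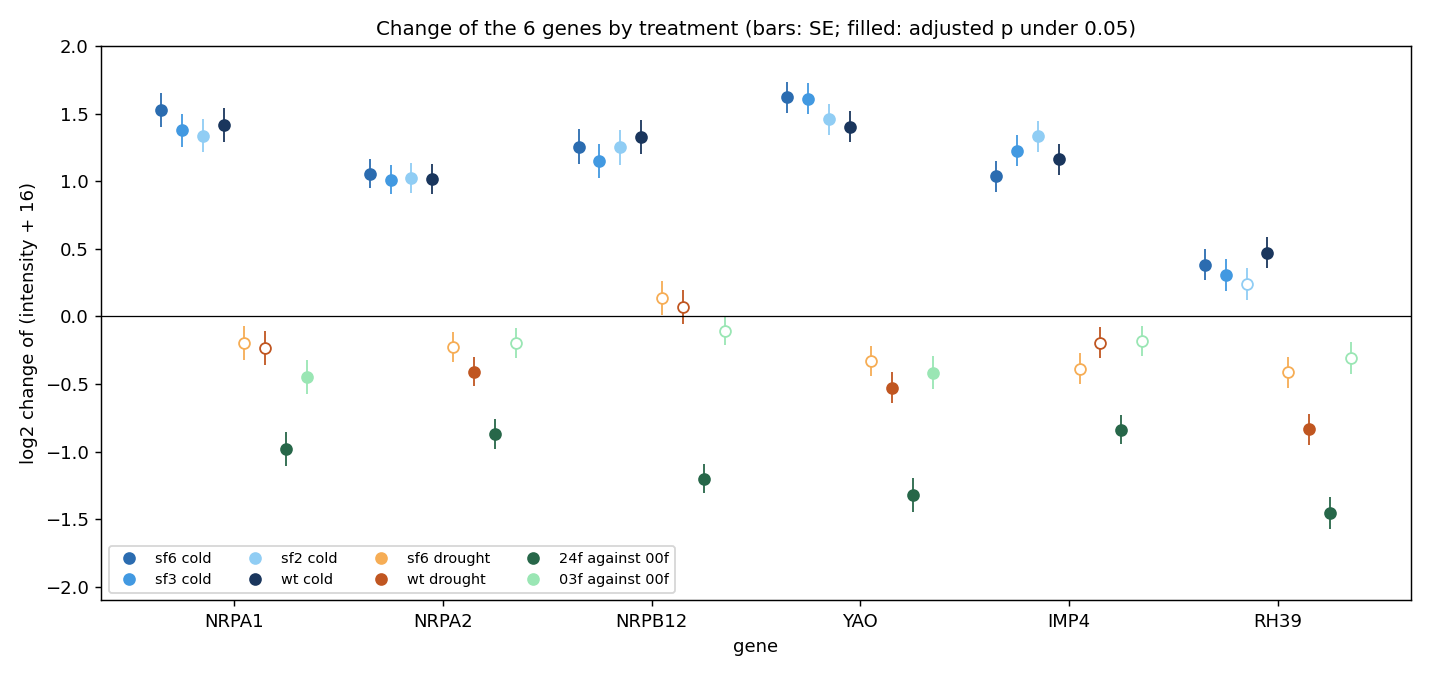
Log2 change of intensity + 16 (vertical axis) for each gene (horizontal axis) in 8 comparisons; bars are standard errors, filled points passed an adjusted p of 0.05 and open points did not. Cold changes of the first 5 genes lie between 1.01 and 1.62, those of RH39 between 0.24 and 0.47; the 24f against 00f changes lie between -1.45 and -0.84.

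The second question was whether the mutant lines differed from wild type. No member differed between sf6, sf3 or sf2 and wt in the controls, in the cold, or, for sf6, in drought, and no difference of response passed the test. These counts of 0 stand beside few calls among all probe sets: 0.0293%, 0.123% and 0.111% of those tested for sf6, sf3 and sf2 controls, and 0.0117%, 0.0234% and 0.117% for sf6, sf3 and sf2 in cold. For sf6 in drought the share was 0.00586%. In the controls the members' log2 differences from wt ran from -0.15 (NRPA2 in sf2, 95% interval -0.38 to 0.08) to 0.13 (IMP4 in sf6, -0.12 to 0.37). The widest bound among the members in the controls was that of -0.38, so larger differences lay outside all of these intervals. At an unadjusted p under 0.05 in limma, the members had RH39 in sf2 cold, in sf6 drought and in the sf6 drought response, beside 11.1%, 7.2% and 6.44% of all tested probe sets, and no member elsewhere among these comparisons, beside 5.87% to 10.9%.

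The cold response was set against that of wt directly. Differences of the mutant response from the wt response ran from -0.23 (RH39 in sf2, 95% interval -0.58 to 0.12, adjusted p = 0.651) to 0.22 (YAO in sf6, -0.12 to 0.56, adjusted p = 0.670). The percentages of probe sets called for these differences were 0.0352%, 0.041% and 0.129% in sf6, sf3 and sf2. RH39 differed from its wt response by -0.09 (sf6), -0.17 (sf3) and -0.23 (sf2). In sf2 cold, RH39 read 136.4 and 141.8 against 176.8 and 172.5 in wt cold, a log2 difference of -0.30 with an unadjusted p of 0.0205 that did not pass after adjustment (0.352). The failure of the RH39 call in sf2 cold is therefore not a shown difference between sf2 and wt. The cold changes of the RNA polymerase I subunit NRPA2 differed from wt by 0.04 in sf6 (95% interval -0.29 to 0.36), -0.01 in sf3 (-0.33 to 0.32) and 0.01 in sf2 (-0.32 to 0.33).

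After drought the log2 changes of the 5 genes with nuclear products ran from -0.53 to 0.13. RH39 had a change of -0.84 in wt drought beside 0.47 in wt cold. In wt, RH39, YAO and NRPA2 fell after cutting and 2 h of drying, and the other 3 genes did not pass the test. In sf6, none of the 6 passed it. In both lines 5 of 6 genes had both drought arrays below both control arrays, NRPB12 being the exception, and 31.9% of all probe sets in wt and 28.3% in sf6 had such a lower, non-overlapping pattern. The drought and cold comparisons of a line share their control arrays, so they are given side by side.

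RH39 changed most in wt drought. It was at 61.4 and 60.6 in wt drought against 123.0 and 120.2 in wt control, and at 75.5 and 83.5 in sf6 drought against 114.8 and 107.8 in sf6 control. The drought arrays of both lines lay below every agar control array. RH39 fell by 0.84 on the log2 scale in wt (SE 0.12, 0.560-fold, adjusted p = 2.57e-04), in every alternative tried. The change in sf6 was -0.42 with an adjusted p of 0.0574. The sf6 change of RH39 passed under quantile normalization (adjusted p = 0.0472), with the replicate number as a block (0.0471) and when only the compared groups were fitted (0.0339). The response of sf6 differed from that of wt by 0.42 (95% interval 0.07 to 0.77, unadjusted p = 0.0203, adjusted p = 0.711), and none of the 17059 probe sets (0%) passed for this difference, 1098 having an unadjusted p under 0.05 in limma.

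YAO read 53.5 and 55.3 in wt drought against 92.4 and 79.1 in wt control, and 61.7 and 66.9 in sf6 drought against 80.7 and 89.3 in sf6 control. YAO fell by 0.53 in wt (SE 0.11, adjusted p = 0.00744), and its change in sf6 was -0.33 (adjusted p = 0.128). Leaving out control replicate 1 of wt (adjusted p = 0.0969) or drought replicate 1 of wt (0.0668) ended this call. NRPA2 read 108.7 and 97.4 in wt drought against 139.5 and 144.8 in wt control. NRPA2 fell by 0.41 in wt (SE 0.11, adjusted p = 0.0234), a call lost when any of the 4 arrays was left out (adjusted p 0.0633 to 0.187), and its change in sf6 was -0.23 (adjusted p = 0.287).

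The remaining changes in drought did not pass the test. NRPA1, the largest polymerase I subunit, read 42.3 and 40.6 in wt drought against 51.3 and 52.0 in wt control, with a log2 change of -0.24 (adjusted p = 0.265). IMP4 had a change of -0.20 in wt (adjusted p = 0.323) and of -0.39 in sf6 (adjusted p = 0.0703). NRPB12, the subunit common to all polymerases, read 166.2 and 155.7 in wt drought against 144.9 and 160.9 in wt control, and 191.9 and 169.7 in sf6 drought against 156.4 and 169.9 in sf6 control. Its arrays overlapped in both lines, and its changes were 0.07 in wt and 0.13 in sf6.

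Of the 6 genes, 3 fell in wt against 4.96% of all tested probe sets that fell, and none fell in sf6 against 1.78%. At an unadjusted p under 0.05, limma gave 3 of the 6 in sf6 (YAO, IMP4 and RH39), beside 17.7% of all tested probe sets. The median change of the members was -0.32 in wt and -0.28 in sf6, beside -0.03 and -0.01 for all probe sets tested. The change of RH39 minus the mean change of the other 5 genes was -0.21 in sf6 and -0.58 in wt, and no test is attached to it. PRL had a change of -0.34 (adjusted p = 0.0792) and PYK10 fell by 0.81 (adjusted p = 4.28e-04) in wt drought, and none of the 3 photosynthesis markers passed there (-0.28 to -0.14). The part of cell type in the members' values was not tested.

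Drought and cold samples of a line were also compared directly. All 6 genes were lower in drought than in cold in both lines, against 21.1% of all tested probe sets in sf6 and 23.1% in wt. YAO had the largest difference, -1.95 in sf6 and -1.93 in wt. RH39, with its small rise in cold and its fall in wt drought, differed by -0.80 in sf6 and by -1.31 in wt. For the other 4 genes the differences lay between -1.72 (NRPA1 in sf6) and -1.12 (NRPB12 in sf6). Median scaling changed the split of all calls in sf6 to 3578 higher and 4488 lower, against 4560 and 3593, and left these 12 calls in place.

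**Figure D3:**
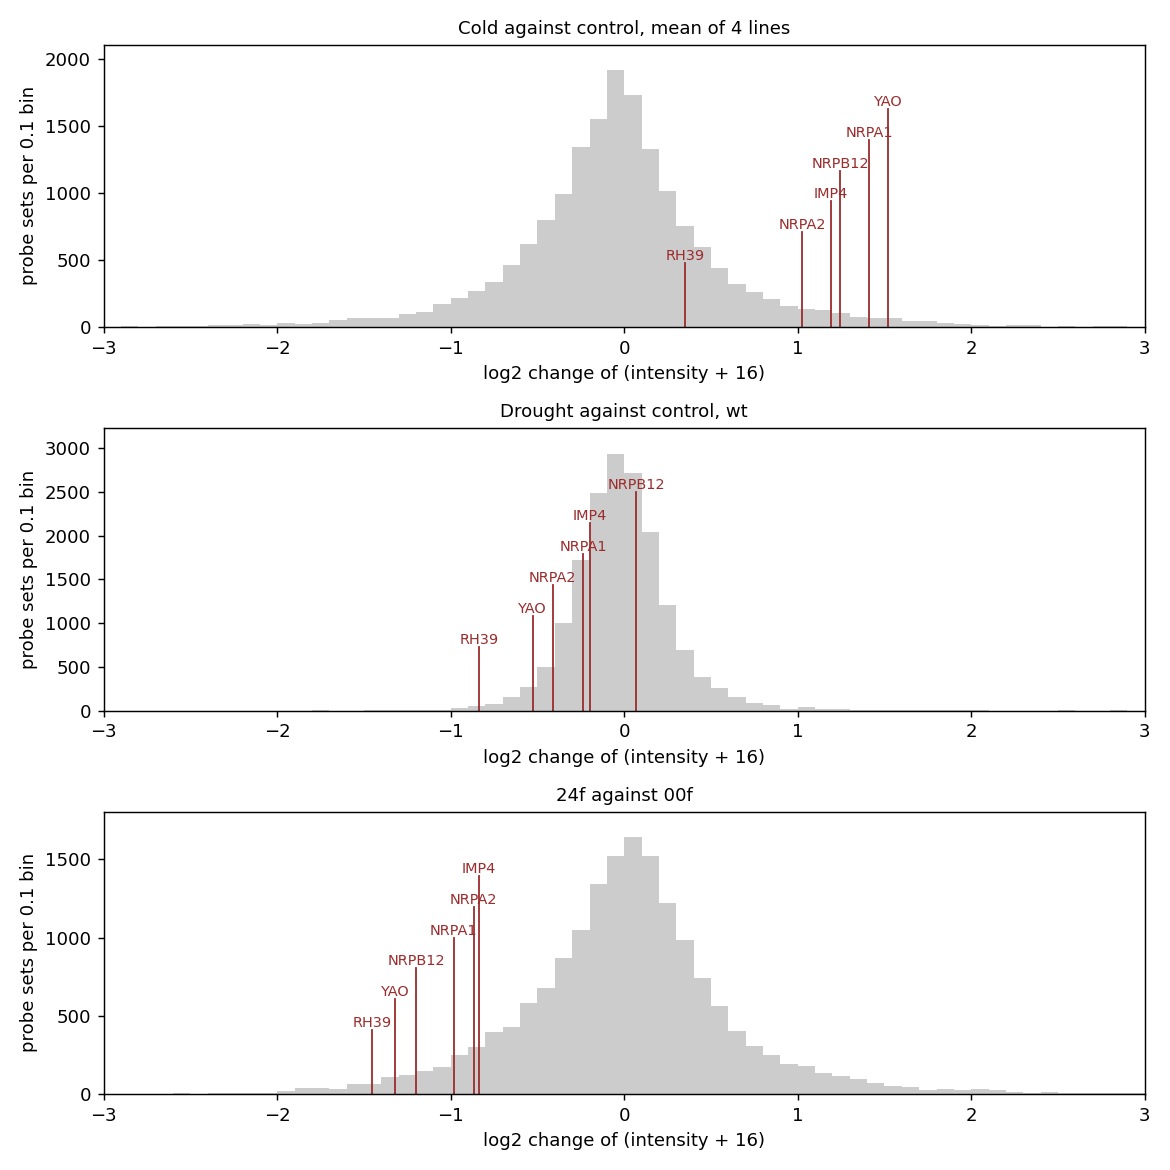
Histograms of the log2 change of intensity + 16 over all tested probe sets (bins of 0.1; vertical axis, number of probe sets; horizontal axis shown out to 3 on either side), with the 6 genes marked by red lines whose height has no meaning. The 5 genes with nuclear products lie at 1.03 to 1.52 in cold and RH39 at 0.35. In wt drought the 6 genes run from -0.84 to 0.07. In 24f against 00f all lie between -1.45 and -0.84.

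Among the compost-grown groups, the 6 genes were lowest in 24f. All 6 fell in 24f against 00f and in 24f against 03f. The falls against 00f ran from 0.84 for IMP4 to 1.45 for RH39 on the log2 scale. Between 03f and 00f, NRPA1 and YAO were lower, by a margin that depended on array scaling. What distinguishes the 3 groups biologically is not stated in the labels.

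NRPA1 read 29.6 and 30.6 in 24f, 53.7 and 48.1 in 03f, and 72.8 and 77.4 in 00f. The groups did not overlap, and NRPA1 fell by 0.98 in 24f against 00f (SE 0.13, adjusted p = 1.11e-04) and by 0.54 in 24f against 03f (adjusted p = 0.00498). The second of these calls was lost without 03f replicate 1 (adjusted p = 0.0532). NRPA2 read 66.0 and 66.5 in 24f, 118.5 and 111.0 in 03f, and 138.3 and 130.1 in 00f. It fell by 0.87 against 00f (SE 0.11, adjusted p = 1.08e-04) and by 0.67 against 03f (adjusted p = 5.55e-04). For both polymerase I subunits, as for every other member, the 24f arrays were the lowest of the whole study. Agar and compost arrays were not tested against each other.

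NRPB12 read 97.6 and 99.9 in 24f, 233.7 and 223.1 in 03f, and 257.5 and 238.0 in 00f. Nearly all of its difference lay between 24f and the other groups: it fell by 1.2 against 00f (SE 0.11, adjusted p = 9.47e-06) and by 1.09 against 03f (adjusted p = 1.26e-05), and the 03f change from 00f was -0.11 (adjusted p = 0.472). YAO read 39.0 and 48.6 in 24f, 98.5 and 92.9 in 03f, and 130.5 and 135.5 in 00f. The nucleolar WD40 protein's transcript fell by 1.32 against 00f (SE 0.12, adjusted p = 1.36e-05) and by 0.91 against 03f (adjusted p = 1.46e-04). IMP4 read 77.5 and 85.3 in 24f, 139.9 and 134.6 in 03f, and 154.9 and 161.3 in 00f. IMP4 fell by 0.84 against 00f (adjusted p = 1.29e-04) and by 0.66 against 03f (adjusted p = 5.95e-04), the 24f arrays lying clear of the others.

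RH39 showed the largest fall. It read 26.9 and 28.6 in 24f, 83.2 and 78.2 in 03f, and 103.6 and 103.9 in 00f. Its log2 change was -1.45 in 24f against 00f (SE 0.12, 0.365-fold, adjusted p = 5.49e-06) and -1.14 in 24f against 03f (adjusted p = 1.92e-05). The chloroplast helicase thus fell in 24f and rose least in cold, but agar and compost groups differ in temperature, humidity, day length and substrate and were not tested against each other.

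Of the 6 genes, all were called lower in 24f against 00f and in 24f against 03f, while 21.4% and 19.8% of tested probe sets were. The median change of the members was -1.09 against 00f and -0.79 against 03f, beside 0.02 and 0.09 for all probe sets. Scaling by medians moved the median of all probe sets against 03f to -0.05, and the higher and lower calls there to 3212 and 4484, against 4525 and 3385. In 03f against 00f, 2 members were called lower beside 18.8% of all probe sets tested, so this count stands near the background. NRPA1 fell by 0.45 (SE 0.13, adjusted p = 0.0210) and YAO by 0.42 (SE 0.12, adjusted p = 0.0264), and the median change of all probe sets was itself -0.13. Under median scaling, where that median was 0.01, the changes were -0.30 and -0.26, neither passed, and 2611 probe sets were called higher and 1626 lower, against 1969 and 3202. Both calls were also lost under quantile normalization and without any of the 4 arrays. The cell division gene PRL changed by -1.0 in 24f against 00f (adjusted p = 6.16e-05) and PYK10 by 1.70 (adjusted p = 1.08e-04). LHCB4.2 rose by 0.62 there (adjusted p = 0.00610), RCA and LHCB4.1 had changes of 0.18 (adjusted p = 0.438) and 0.30 (adjusted p = 0.200), and their part in the result was not tested.

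Across all 13 groups, the 4 cold groups held the highest means and 24f the lowest for each of the 6 genes. How many other probe sets share this order was not counted. The order also mixes agar and compost groups, which were not tested against each other. Between the cold groups and 24f the order differed. For NRPA1, NRPB12 and YAO the 00f group came next after the cold groups, at 75.1, 247.8 and 133.0, above every agar control. For NRPA2 and IMP4, 00f at 134.2 and 158.1 lay among the agar controls, and for RH39, 00f at 103.8 lay below all of them. The drought groups of NRPB12 lay among or above the controls, whereas those of the other 5 genes lay below every agar control and above 24f. Of the 12 steps between neighbouring groups in this order, the arrays overlapped in 7 for NRPA1, 8 for NRPA2, 7 for NRPB12, 5 for YAO, 8 for IMP4 and 7 for RH39, and the groups within the cold set and within the agar controls are mostly such overlapping neighbours.

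The genes most alike in pattern were ranked among 9436 genes by Pearson's r over the 13 group means of log2(intensity + 16). These values describe groups that share scaling and the cold contrast and that mix agar and compost plants, and they carry no test. For NRPA1 the leading genes were AT1G71850 (r = 0.995), AT5G14050 (0.994) and AT2G28600 (0.994). NRPA2 and IMP4 each had the other among their 3 closest genes (r = 0.991), and both shared AT1G25260 and AT3G57000. For YAO they were AT3G06530 (0.999), PES (0.997) and AT3G13150 (0.996), and for NRPB12 they were AT2G20060 (0.986), AT2G45710 (0.986) and AT3G15460 (0.985). RH39 was less closely matched, with AT2G37190 (0.977), AT5G46580 (0.975) and AT3G60770 (0.974). Among the 5 genes with nuclear products r ran from 0.926 to 0.991, and between RH39 and each of them from 0.740 to 0.872. Over the 10 agar groups alone these ranges were 0.959 to 0.994 and 0.695 to 0.857. Many other genes matched a member as closely as its fellow members did. Among the 5 genes with nuclear products, partners ranked from 3 to 311 of the 9436 genes. In pairs with RH39 the ranks ran from 171 to 1299. By rank of r, NRPA2 and IMP4 were each at 3 for the other. NRPB12 was at 246 for NRPA1, IMP4 at 310 for NRPB12, and RH39 at 1299 for NRPB12.

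Other genes of the same pathways were taken from lists of RNA polymerase subunits, ribosome assembly factors and plastid ribosomal RNA factors. Of 178 names, 23 had a probe set naming that gene alone, 17 of them besides the 6, and 16 of these were bright enough to test. In the mean cold response, 12 of the 16 rose, 1 fell and 3 did not pass, beside 29.7% of all probe sets that rose and 37.6% that fell. The median change of the 16 was 0.62, beside -0.04 for all probe sets. The number that rose was 12 to 14 under the alternatives.

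PES, the pescadillo protein of large-subunit assembly, ran from 690.4 to 910.1 in cold arrays against 234.1 to 291.8 in control arrays and rose by 1.58 on the log2 scale (adjusted p = 4.77e-13). NOB1, whose yeast counterpart makes the last cut of the small-subunit RNA, rose by 1.41 (adjusted p = 3.15e-11). NRPB7, a stalk subunit of RNA polymerase II, rose by 1.03 (adjusted p = 1.31e-10), and PRH75, a nucleolar DEAD-box helicase, by 0.94 (adjusted p = 2.68e-10). The gene that fell was RAP, a chloroplast protein that acts on the small-subunit ribosomal RNA of that organelle, by 0.58 (adjusted p = 8.73e-05). RAP ran from 120.0 to 192.2 in cold arrays against 176.4 to 297.9 in control arrays, so the ranges overlapped. The 3 genes that did not pass were DIM1A, with a change of 0.15, the polymerase III subunit NRPC1 with 0.11 and NRPD7, a stalk subunit of RNA polymerase IV, with 0.05. NRPC1 and NRPD7 were dim, at 16.4 to 33.5 and 20.1 to 31.1 in the control and cold arrays. The added 16 understates changes at such levels. By line, 9 of the 16 rose in sf6, 12 in sf3, 12 in sf2 and 9 in wt. The shares of all tested probe sets that rose were 19.5%, 20%, 19.8% and 20.7% in the same order. RAP was called lower in sf6, sf3 and wt but not in sf2.

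**Figure D4:**
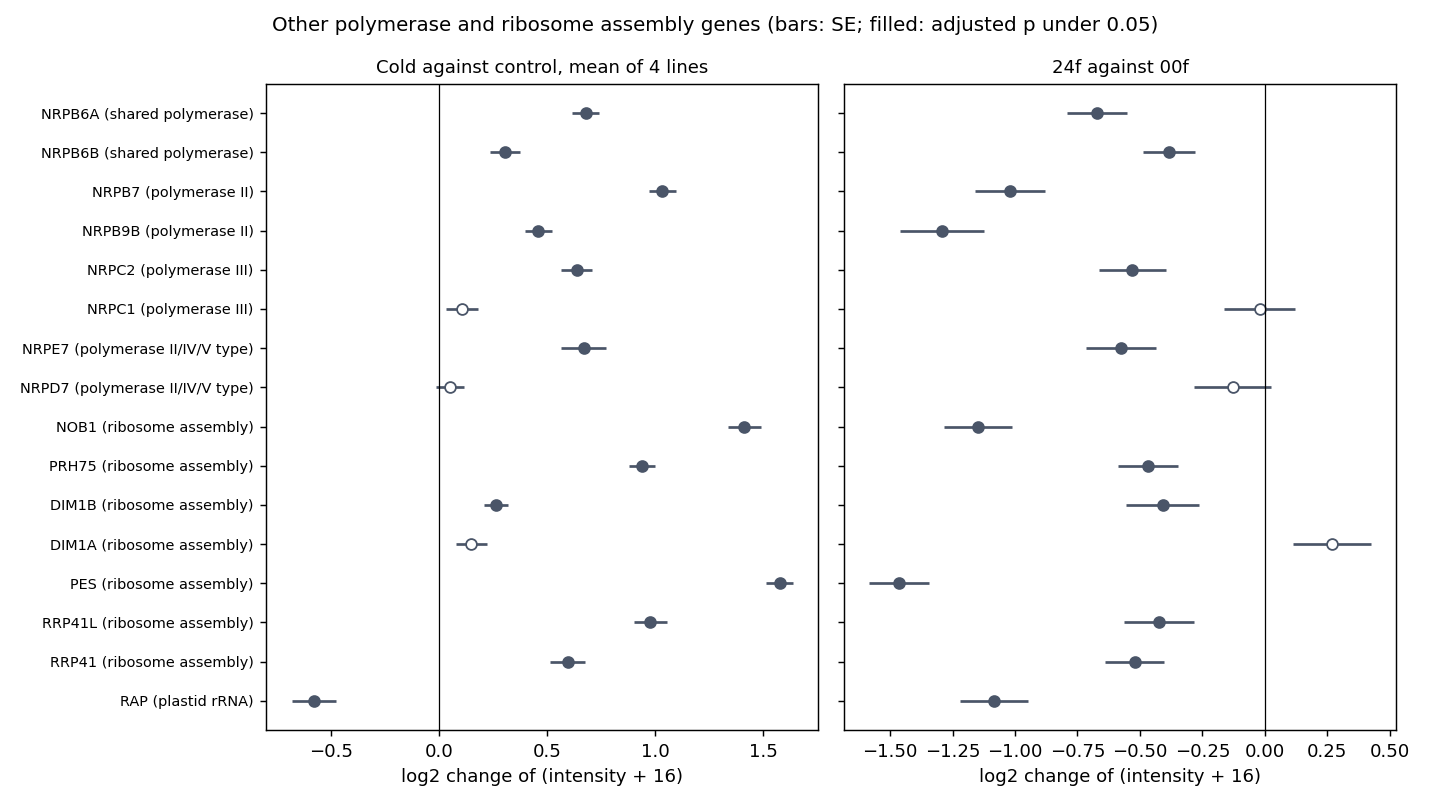
Log2 change of intensity + 16 (horizontal axis) of the 16 other polymerase and ribosome assembly genes (vertical axis) in the mean cold response (left) and in 24f against 00f (right); bars are standard errors, filled points passed an adjusted p of 0.05. In cold 12 genes rose, from 0.26 (DIM1B) to 1.58 (PES), and RAP fell by 0.58. In 24f against 00f 13 genes fell and 3 (NRPC1, NRPD7, DIM1A) did not pass. NRPC1 and NRPD7 were dim, so their changes are understated.

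In wt drought, 2 of the 16 fell, beside 4.96% of all probe sets tested, and none rose. PES read 167.7 and 169.3 in wt drought against 255.2 and 291.8 in wt control and fell by 0.65 (adjusted p = 0.00330), and NRPC2, another large subunit of RNA polymerase III, fell by 0.60 (adjusted p = 0.0130). The NRPC2 call was lost in 5 of 13 alternatives. In sf6 drought none of the 16 passed. The median change of the 16 was -0.03 in wt drought, equal to that of all probe sets to 2 decimals.

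Among the compost groups, 13 of the 16 fell in 24f against 00f, 7 in 24f against 03f and 7 in 03f against 00f, and none rose. The shares of all tested probe sets that fell were 21.4%, 19.8% and 18.8% in the same comparisons. Under the alternatives these counts ran from 8 to 13, 4 to 9 and 2 to 8. In 24f against 00f, PES fell by 1.46 (adjusted p = 5.68e-06), NRPB9B, a polymerase II subunit, by 1.29 (adjusted p = 1.37e-04), NOB1 by 1.15 (adjusted p = 7.27e-05) and RAP by 1.08 (adjusted p = 1.02e-04). PES read 125.5 and 154.2 in 24f, 283.1 and 284.3 in 03f, and 428.3 and 396.7 in 00f, with no overlap. In 24f against 03f the genes with the smallest adjusted p were PES (-0.95), NRPB9B (-1.15), RAP (-0.85) and NRPB7 (-0.61). The call of NRPB7 there was lost in 1 of 11 alternatives. In 03f against 00f they were NOB1 (-0.90), PRH75 (-0.62), PES (-0.52) and DIM1B, a ribosomal RNA dimethylase of mitochondria (-0.57). The calls of PES and DIM1B in that comparison were each lost in 4 of 11 alternatives, and those of NOB1 and PRH75 in none.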

How the data were processed

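Per the labels' protocols, RNA from 18 pooled plants per sample was hybridised to 1 array each. The deposited intensity values are linear, 1 per probe set, and per their trimmed mean of 100.01 (2% cut at each end) on all 26 arrays the authors had scaled every array to the same level. The software that summarised the probes is not given in the sources used here, and no detection calls were used. Probe sets were named from the platform annotation, with symbols from RefSeq. The 64 control probe sets were left out. Intensities were moved to log2(intensity + 16), and probe sets below the 25th percentile of mean level were dropped, leaving 17059 in each fit. The fits used limma 3.58.1 in R 4.3.3 (lmFit, eBayes with trend), 1 over the 20 agar arrays and 1 over the 6 compost arrays, with Benjamini-Hochberg adjustment over all tested probe sets and a threshold of 0.05. The fits and calls were tested on simulated data. Intervals are 95% and come from the fit. Where several probe sets named a gene, the brightest stood for it. Named pathway genes are up to 4 per direction with the smallest adjusted p among those called, and likeness names the 3 genes of highest r. The 6 genes, lists and tests were chosen with earlier results of these data known. Alternatives were the pseudocounts 1 and 64, no filter, median scaling, quantile normalization, a replicate block, fitting only the compared groups, and leaving out each array or both arrays marked as repeats. Leaving out 2 control arrays that stood apart was added after seeing the data.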

Additional observations from a re-analysis of the deposited data

How the results depend on the processing

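The number of the 6 genes called stayed within 1.5 times its value in all but 3 comparisons. In 03f against 00f, 2 genes passed, against 1 without the filter on dim probe sets, 0 under median scaling, 0 under quantile normalization, and 0 to 0 when any array was left out. In sf6 drought 0 passed, against 1 under quantile normalization (RH39, adjusted p = 0.0472), 1 with the replicate block (RH39, 0.0471) and 2 when only the compared groups were fitted (RH39, 0.0339, and IMP4, 0.0362). In wt drought 3 passed, against 1 without both arrays marked as repeats and 1 to 2 when any array was left out. No called change turned its sign. Without sf3 control replicate 2 and wt control replicate 2, which stood apart, the RH39 call in sf3 cold (adjusted p = 0.400) and the NRPA2 call in wt drought (0.105) were lost. The replicate block moved no other count of the 6 genes by over 1.5 times. Deviations of same-numbered agar arrays correlated at -0.25 to 0.24 over 45 pairs of groups (median -0.01). Of these pairs, 5 were over 0.1 and 3 under -0.1. No general pairing by number was seen, but a pairing within some groups is not excluded. Over the 3 pairs of compost groups the values were 0.10 to 0.20, and with 2 arrays a group they do not settle a pairing; the block left 2, 6 and 6 genes called in 03f against 00f, 24f against 00f and 24f against 03f. Each gene has 1 probe set, so averaging probe sets was not run. A compost group left with 1 array was assumed to vary like the others. With 2 arrays a group and no measure of signal over background, changes as small as those of RH39 in single lines are close to what the arrays can resolve.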
